A study of Mus musculus with 6 samples.

Results

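The mitochondrial carrier family, Slc25, was followed in the livers of isolated and control mice through every probe set whose platform annotation gave exactly 1 gene symbol of the form Slc25a and a number. These were 93 probe sets of 44 genes, out of 45101 probe sets on the array. Of the 44 genes, 21 had 1 probe set and the others had up to 8, and probe sets of 1 gene read the same transcripts and are not replicates. The isolated group was 3 livers of male BALB/c mice kept singly for 30 days, with less bedding than controls and in boxes that prevented social contact. The control group was 3 livers of male BALB/c mice, and all 6 samples were from mice aged 10 weeks that had been group-housed before isolation began. Each sample had 1 Affymetrix array, and the labels number the samples without saying that each came from a separate mouse, so p-values measure the spread between these samples, which may be partly technical.

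Proteins of the Slc25 family sit mostly in the inner mitochondrial membrane and carry metabolites that the membrane does not let through, such as nucleotides, citrate, amino acids, acylcarnitines, phosphate and iron. In liver they join the cytosolic and mitochondrial steps of urea synthesis, fat synthesis, fatty acid oxidation and heme synthesis. Most members share a fold built from similar repeats, and many act as exchangers that swap substrates across the membrane. Some members still have no substrate that is agreed on.

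Signals are MAS5 values, a linear intensity per probe set, and a log2 change is the isolated mean minus the control mean of log2(signal + 2), which understates changes of dim probe sets. Signals of different probe sets are not comparable as levels, so each is compared with itself across arrays. The median signal per array was 18.4 to 21.9 in isolated livers and 18.4 to 22.1 in control livers. The ratio of 3′ to 5′ Gapdh probe sets, a check of RNA quality, was 0.689 to 0.695 in isolated livers and 0.692 to 0.719 in control livers, and the same ratio for Actb was 2.14, 2.35 and 1.99 in isolated replicates 1, 2 and 3 and 2.14 to 2.32 in control livers. The summed signal of 8 hepatocyte markers was 77070 to 82766 in isolated livers and 80977 to 85539 in control livers, and the labelled tissue was borne out by albumin signals of 9947 to 10928 in isolated livers and 10200 to 10948 in control livers. In bulk tissue, fewer cells of a type and less RNA per cell cannot be told apart.

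Isolated livers had lower transcript signals of 4 carrier genes, Slc25a30, Slc25a33, Slc25a34 and Slc25a47, and a higher signal of Slc25a45. Apart from Slc25a30, each of these genes had 1 member probe set, so its result could not be compared between probe sets. Of the 93 probe sets, 67 of 36 genes lay in the upper 50% by mean signal and were tested with limma, and no probe set passed that filter for the other 8 genes, Slc25a2, Slc25a14, Slc25a18, Slc25a31, Slc25a35, Slc25a41, Slc25a53 and Slc25a54. At a limma adjusted p under 0.05, 7 Slc25 probe sets were lower, or 10.4% of the 67, against 0.857% of all 22519 probe sets tested. One was higher, or 1.49% of the 67, against 0.773% of all tested. Slc25a30 alone gave 4 of the 7, and without it 3 of 63 were lower, or 4.76%. Counted by gene, 4 of 36 were lower in at least 1 probe set, or 11.1%, against 1.03% of the 10986 genes tested, and 1 of 36 was higher, or 2.78%, against 1.18%. None of the 8 called probe sets passed in a fit without the trend of variance on intensity (limma adjusted p 0.0653 to 0.261).

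Of the 67 tested probe sets, 35 had log2 changes above 0 and 32 below, and the median was 0.02, against 0.04 over all tested probe sets. Over the 59 tested probe sets that were not called, 34 lay above 0 and 25 below, with a median of 0.03. The median of the 67 changed sign between settings, as did that of the whole array. Without isolated replicate 3 it was -0.12, against -0.03 over all tested probe sets, and without control replicate 3 it was 0.09, against 0.10. The middle part of the family ran from -0.22 to 0.15 (25th to 75th percentile), against -0.15 to 0.22 over all tested probe sets. The groups did not overlap in 19 of the 67, or 28.4%, against 15.4% of all tested, and 13 of these 19 were lower in isolated livers. Without Slc25a30 the groups did not overlap in 15 of 63, or 23.8%.

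**Figure D1:**
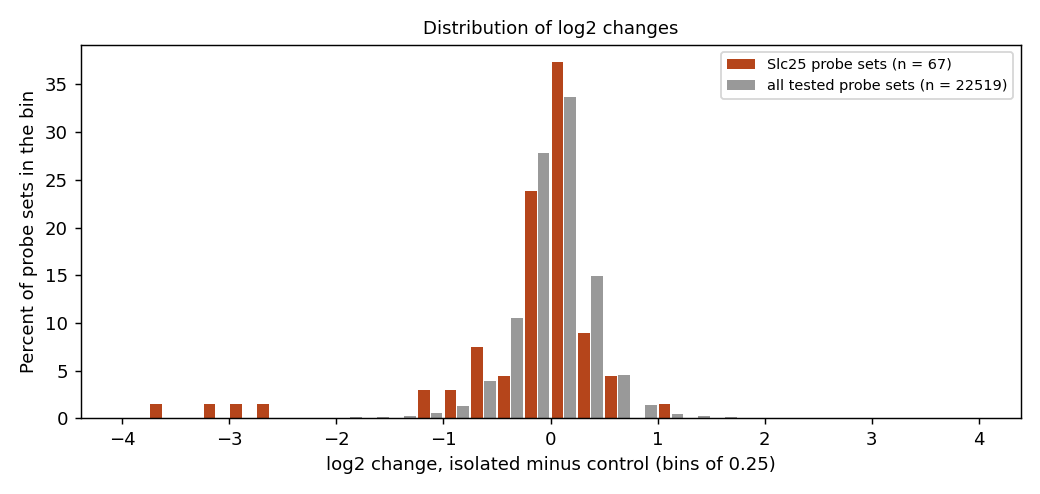
Percent of probe sets in bins of 0.25 of the log2 change, isolated minus control, for the 67 tested Slc25 probe sets and all 22519 tested probe sets. The 4 Slc25a30 probe sets form the low tail between -3.75 and -2.5, and most of the family lies in the bins next to 0.

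**Figure D2:**
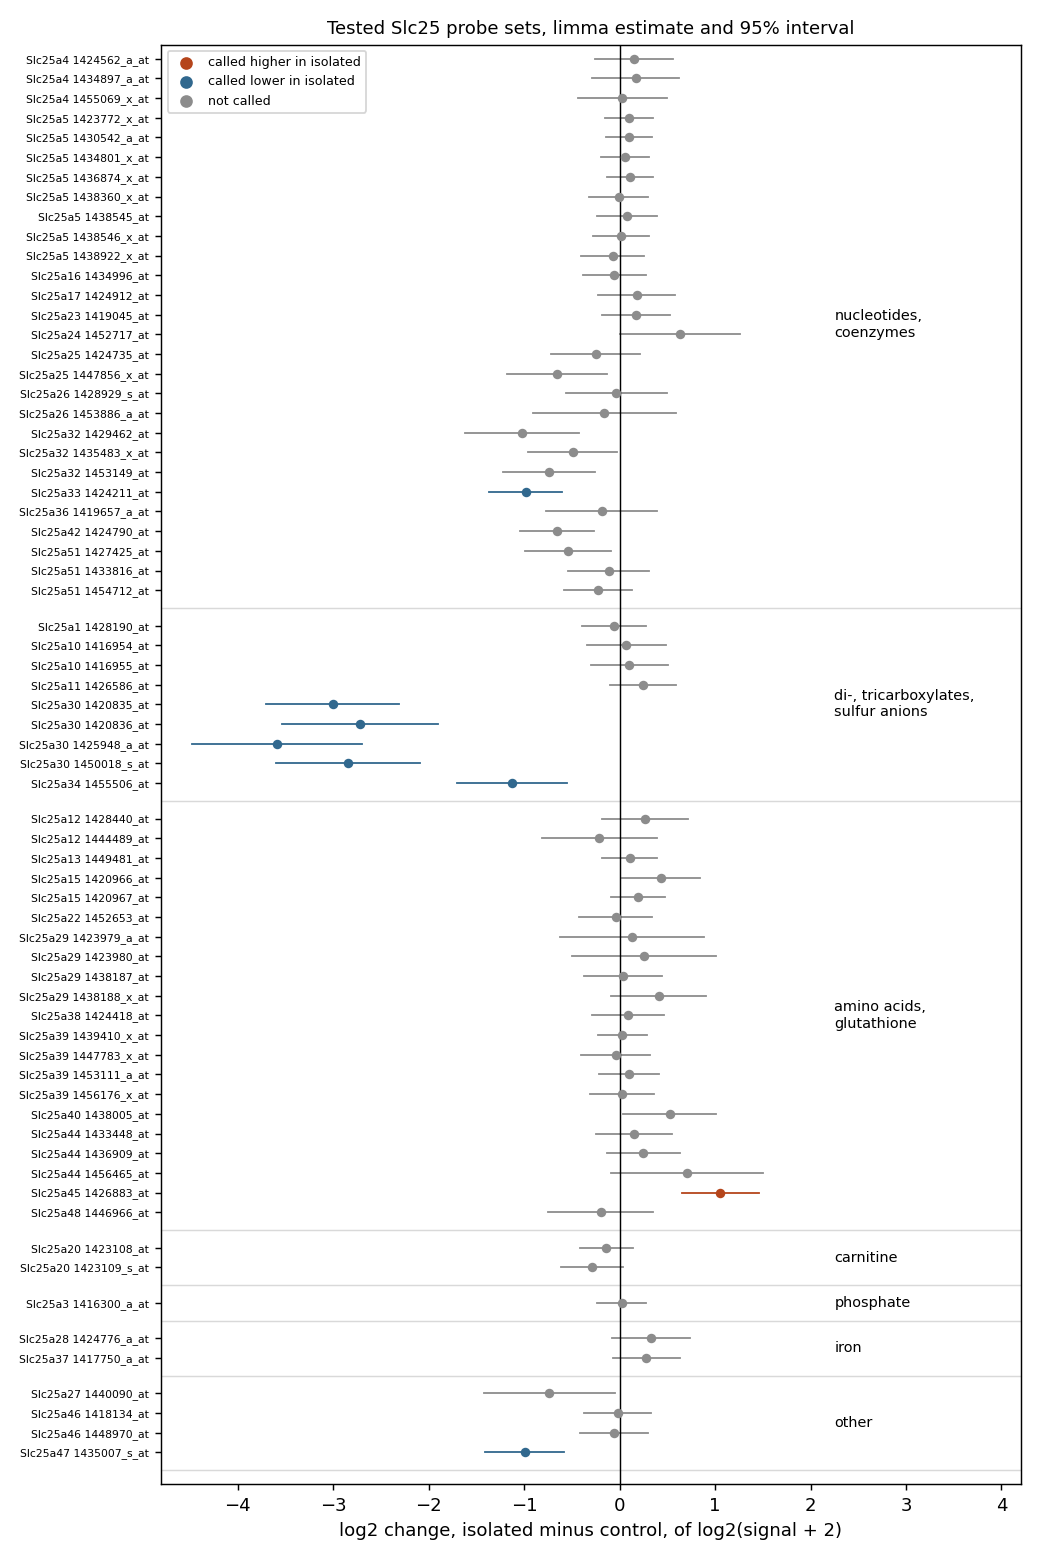
Log2 change, isolated minus control, of each tested Slc25 probe set with its 95% limma interval, ordered by substrate group from top to bottom. The 4 Slc25a30 probe sets lie lowest, at -3.59 to -2.72, and Slc25a45 at 1.06 is the 1 called higher.

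The carriers of di- and tricarboxylates and of sulfur anions held 5 of the 8 called probe sets, but 2 of the 5 called genes. This group had 7 genes, of which 5 were tested with 9 probe sets, and 5 probe sets of 2 genes fell, none rose and 4 did not pass. Over all tested probe sets 0.857% were called lower and 0.773% higher. The group's median log2 change was -1.13, and it rests on Slc25a30, which supplied 4 of the 9 probe sets. The substrate groups were chosen with earlier results of these data known.

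Slc25a30, also called kidney mitochondrial carrier protein 1, carries inorganic sulfur anions in work on the purified human protein. Probe set 1420836_at read 720, 114 and 535 in isolated replicates 1, 2 and 3, against 2336, 2129 and 2561 in control replicates 1, 2 and 3. Probe set 1420835_at read 296, 62.4 and 201 in isolated replicates, against 1319, 1217 and 1251 in control replicates. Probe set 1450018_s_at read 393, 76.0 and 326 in isolated replicates, against 1445, 1559 and 1652 in control replicates. The 3 probe sets agreed array by array, with isolated replicate 2 the lowest and replicate 1 the highest, and every isolated value lay under every control value. Probe set 1425948_a_at read 39.7, 5.96 and 48.8 in isolated replicates, against 363, 275 and 290 in control replicates. It again had isolated replicate 2 as the lowest array, where the signal lay under the filter's floor of 18.0 on the mean signal, so its fold is approximate.

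The log2 changes of these Slc25a30 probe sets were -2.72 ± 0.39, -3.00 ± 0.33, -2.84 ± 0.36 and -3.59 ± 0.43 (SE, n = 3 per group), in the order given, with limma adjusted p of 3.76e-04, 1.91e-05, 9.20e-05 and 3.93e-05. The isolated arrays spread far more than the controls did: the highest isolated value of 1420836_at was 6.33 times the lowest, against 1.20 times among controls. Without isolated replicate 2 the folds were over 1.5 times smaller, with log2 changes of -1.91, -2.36, -2.11 and -2.75. These calls held in that fit. They were lost with a robust variance trend, which gives genes of high spread a wider error (limma adjusted p 0.320, 0.183, 0.248 and 0.210). The fifth probe set, 1425949_at, was under the filter at 0.692, 0.433 and 2.85 in isolated replicates and 7.21, 6.79 and 3.57 in control replicates, and its groups did not overlap either.

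Slc25a34, a carrier related by sequence to the oxaloacetate carrier of yeast, was the other member of this group that fell. It read 23.8, 23.9 and 42.4 in isolated replicates, against 79.0, 52.8 and 68.0 in control replicates. Isolated replicates 1 and 2 were nearly equal and replicate 3 was higher, and the groups did not overlap. The log2 change was -1.13 ± 0.28 (SE, n = 3 per group), or 2.19-fold lower, and the limma adjusted p was 0.0390. It did not pass without control replicate 1 (adjusted p 0.155), without control replicate 3 (0.145), without isolated replicate 1 (0.0837) and without isolated replicate 2 (0.108), as well as without the filter (0.178), with median centring (0.0521) and with quantile normalization (0.0544).

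The citrate carrier Slc25a1, which exports citrate for fat synthesis, read 675, 613 and 852 in isolated replicates and 672, 714 and 830 in control replicates. These groups overlapped, and the log2 change was -0.06 with a 95% interval of -0.40 to 0.28. The dicarboxylate carrier Slc25a10 had log2 changes of 0.07 and 0.10 in its 2 probe sets, and the oxoglutarate-malate carrier Slc25a11 had 0.25, none of them called. Of the untested members, Slc25a14, a close relative of Slc25a30, read 22.7, 31.5 and 24.7 in isolated replicates and 10.0, 7.55 and 4.72 in control replicates. Its groups did not overlap, in the direction opposite to Slc25a30, and in a fit without the filter its limma adjusted p was 0.274. Slc25a35, the relative of Slc25a34, read 32.8, 13.3 and 21.2 in isolated replicates and 3.15, 13.4 and 10.5 in control replicates, which overlapped.

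**Figure D3:**
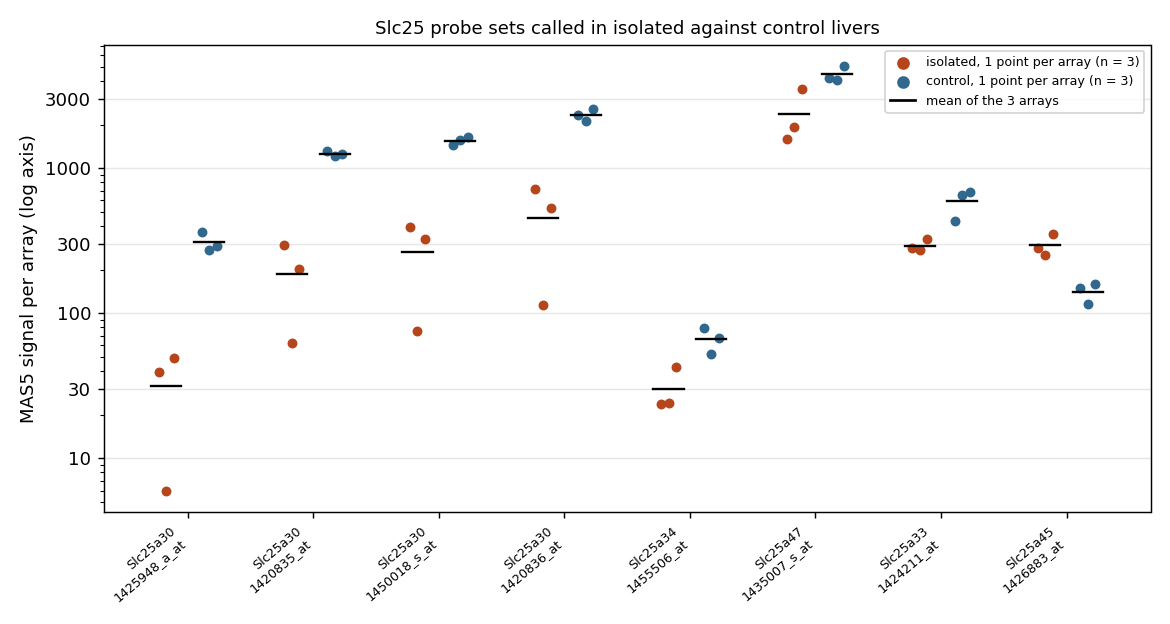
MAS5 signal of each array on a log axis for the 8 called Slc25 probe sets, isolated left of control, with a bar at the mean of the 3 arrays. In each of the 8 the isolated and control arrays do not overlap, and isolated replicate 2 (the middle point of the isolated group) is the lowest in all 4 Slc25a30 probe sets.

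Slc25a47, a liver-enriched carrier described as a mild uncoupler in hepatocytes, fell. Among carriers named for proton leak or with no substrate assigned here, it was the 1 called of 4 tested probe sets. Over all tested probe sets 0.857% were called lower. Slc25a47 read 1602, 1923 and 3539 in isolated replicates, against 4191, 4076 and 5076 in control replicates. Isolated replicate 3 lay far above the other two but under every control. The log2 change was -0.997 ± 0.20 (SE, n = 3 per group), or 2.00-fold lower, and the limma adjusted p was 0.00961. This call did not hold without control replicate 3 (adjusted p 0.0855), without the filter (0.114) and with a robust trend (0.328).

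In the same set, Slc25a27, an uncoupling protein relative known mainly from brain, had probe sets that disagreed. Its tested probe set 1440090_at read 18.5, 16.8 and 23.7 in isolated replicates and 33.1, 28.3 and 41.0 in control replicates, a log2 change of -0.74 ± 0.33 (SE, n = 3 per group) with a limma adjusted p of 0.390. The untested 1458119_at read 7.63, 10.4 and 13.1 in isolated replicates and 1.89, 1.41 and 1.60 in control replicates. It thus separated the groups in the opposite direction at signals under the floor. The untested 1431201_at and 1454230_a_at overlapped between the groups, with log2 differences of -0.58 and -0.02. Slc25a46, an outer membrane protein involved in mitochondrial dynamics, had log2 changes of -0.02 and -0.06 in its 2 probe sets.

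Carriers of nucleotides and coenzymes were the largest group by probe sets, with 28 tested from 13 genes, of which 1 fell, none rose and 27 did not pass. Over all tested probe sets 0.857% were called lower. The group's median log2 change was -0.05. Slc25a33, a pyrimidine nucleotide carrier, was the one that fell. It read 281, 272 and 325 in isolated replicates, against 435, 649 and 690 in control replicates, and here the controls were the more variable group. The log2 change was -0.99 ± 0.18 (SE, n = 3 per group), or 1.98-fold lower, and the limma adjusted p was 0.00551. The call held with a robust trend (adjusted p 9.89e-04) and in each fit with 1 array left out (0.00104 to 0.0486). Its relative Slc25a36 had a log2 change of -0.19 in its 1 tested probe set.

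The coenzyme carriers in this group had log2 changes on both sides of 0, and none passed the adjusted threshold. Slc25a16 had a log2 change of -0.06, Slc25a17, a peroxisomal carrier of coenzyme A and related cofactors, had 0.18 in its tested probe set, and Slc25a26, the S-adenosylmethionine carrier, had -0.03 and -0.16. Slc25a32, which brings folate and flavin cofactors into mitochondria, had log2 changes below 0 in all 3 of its probe sets. Probe set 1429462_at read 27.3, 18.4 and 23.9 in isolated replicates and 54.0, 39.2 and 54.3 in control replicates. Probe set 1453149_at read 60.8, 43.7 and 83.1 in isolated replicates and 103, 96.7 and 108 in control replicates. Both separated the groups, while 1435483_x_at, at 67.3, 51.5 and 86.6 in isolated replicates and 82.3, 110 and 94.4 in control replicates, overlapped. The log2 changes were -1.02, -0.74 and -0.49, with limma adjusted p of 0.0858, 0.136 and 0.404. The second of these passed without isolated replicate 3 (adjusted p 0.0377).

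Slc25a42, the coenzyme A carrier, read 176, 141 and 213 in isolated replicates and 286, 254 and 287 in control replicates in probe set 1424790_at. The groups did not overlap, and the log2 change was -0.65 ± 0.19 (SE, n = 3 per group) with a limma adjusted p of 0.0911. It passed with quantile normalization (adjusted p 0.0249), with the upper 25% filter (0.0274), with the replicate number as a block (0.0374) and without isolated replicate 3 (0.0388). Its other probe set, 1443637_at, was under the filter with a log2 difference of 0.12.

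Slc25a25, a calcium-regulated exchanger of ATP-magnesium and phosphate, read 41.7, 55.6 and 94.4 in isolated replicates and 110, 89.8 and 90.5 in control replicates in probe set 1447856_x_at. Isolated replicate 3 lay among the controls, and the log2 change was -0.66 with a limma adjusted p of 0.273, or -0.97 with 0.0410 without isolated replicate 3. The brighter probe set 1424735_at read 281, 364 and 588 in isolated replicates and 581, 370 and 474 in control replicates, with a log2 change of -0.25 and an adjusted p of 0.778. The untested 1454284_at read 14.4, 9.17 and 10.4 in isolated replicates and 24.1, 18.9 and 20.6 in control replicates. Its paralogues Slc25a23 and Slc25a24 had log2 changes of 0.17 and 0.63 in their tested probe sets, with limma adjusted p of 0.805 and 0.438.

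Slc25a51, the mitochondrial NAD carrier, had 3 probe sets with log2 changes of -0.54, -0.11 and -0.23. The first, 1427425_at, read 112, 81.6 and 122 in isolated replicates and 151, 119 and 194 in control replicates, which overlapped, and its limma adjusted p was 0.308.

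**Figure D4:**
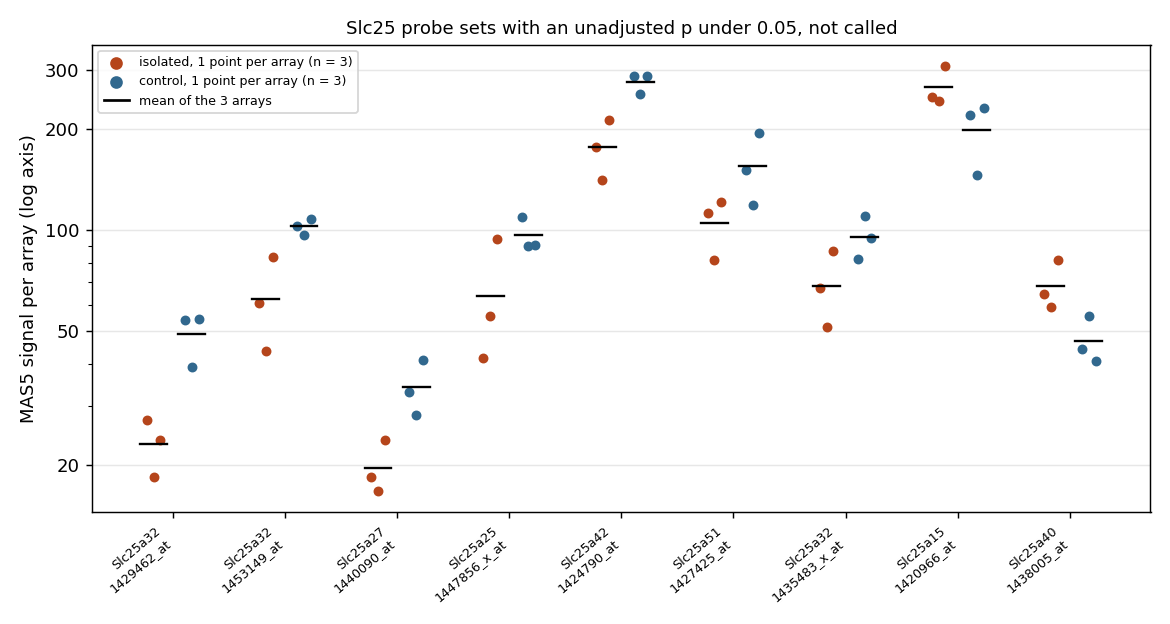
MAS5 signal of each array on a log axis for the 9 Slc25 probe sets with an unadjusted limma p under 0.05 that were not called, isolated left of control, with a bar at the mean of the 3 arrays. Slc25a32, Slc25a27, Slc25a25, Slc25a42 and Slc25a51 have the lower mean in isolated livers, and Slc25a15 and Slc25a40 the higher.

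The adenine nucleotide translocators, which exchange mitochondrial ATP for cytosolic ADP, showed small differences. Slc25a5, the main translocator of liver, had 8 tested probe sets with log2 changes between -0.07 and 0.11. Its brightest, 1436874_x_at, read 5628, 5260 and 5891 in isolated replicates and 5186, 4858 and 5518 in control replicates, with a 95% interval of -0.13 to 0.35. The next, 1430542_a_at, read 4787, 4638 and 5148 in isolated replicates and 4575, 4311 and 4685 in control replicates, with an interval of -0.14 to 0.34. Slc25a4, the muscle and heart form, had 3 tested probe sets at 0.03 to 0.17. Slc25a31, a further translocator, was not tested.

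Amino acid and glutathione carriers included the 1 Slc25 gene that rose. Of 21 tested probe sets from 11 genes, 1 rose, none fell and 20 did not pass, and over all tested probe sets 0.773% were called higher. Of the 21, 17 had log2 changes above 0, several of them from the same gene, with a median of 0.13. Over all tested probe sets 12484 of 22519 lay above 0, with a median of 0.04. Slc25a45, a carrier that resembles the carnitine and basic amino acid carriers in sequence, read 283, 251 and 354 in isolated replicates, against 149, 115 and 159 in control replicates. Every isolated array lay above every control array by a wide gap. The log2 change was 1.06 ± 0.19 (SE, n = 3 per group), or 2.08-fold higher, and the limma adjusted p was 0.00431. The call held with a robust trend (adjusted p 7.87e-04) and in each fit with 1 array left out (0.00268 to 0.0255).

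The ornithine-citrulline carrier Slc25a15, which links the mitochondrial and cytosolic parts of the urea cycle, had 2 tested probe sets. The dimmer, 1420966_at, read 248, 241 and 308 in isolated replicates and 221, 146 and 230 in control replicates, a log2 change of 0.43 (limma adjusted p 0.404). The brighter, 1420967_at, read 2901, 2540 and 2951 in isolated replicates and 2522, 2102 and 2734 in control replicates, a log2 change of 0.20 (adjusted p 0.673). Slc25a40, a relative of the glutathione carrier, read 64.4, 59.3 and 81.4 in isolated replicates and 44.3, 55.6 and 40.9 in control replicates, with a log2 change of 0.52 and an adjusted p of 0.381. Both genes separated the groups in 1 probe set each without passing the threshold.

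Slc25a39, the glutathione carrier of the inner membrane, had 4 tested probe sets with log2 changes of -0.04 to 0.10. Its brightest, 1439410_x_at, read 6756, 5570 and 6688 in isolated replicates and 5681, 5971 and 7015 in control replicates, and 1456176_x_at read 3157, 2222 and 3152 in isolated replicates and 2244, 2805 and 3321 in control replicates. Both overlapped between the groups. The aspartate-glutamate carriers of the malate-aspartate shuttle, Slc25a13 (citrin, the liver form) and Slc25a12, had log2 changes of 0.11 in the 1 probe set of Slc25a13 and of 0.26 and -0.21 in the 2 tested ones of Slc25a12. The glutamate carrier Slc25a22, the basic amino acid carrier Slc25a29, the glycine carrier Slc25a38, the branched-chain amino acid carrier Slc25a44 and Slc25a48 ranged from -0.20 to 0.71, with no call. The 0.71 belonged to 1 dim probe set of Slc25a44, whose other 2 had 0.15 and 0.25.

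Slc25a20 carries acylcarnitines into mitochondria for fatty acid oxidation. Its probe set 1423108_at read 1890, 1906 and 1916 in isolated replicates and 1937, 1983 and 2394 in control replicates. Its probe set 1423109_s_at read 497, 541 and 557 in isolated replicates and 634, 582 and 738 in control replicates. Both lay lower in every isolated array than in any control array, but the differences were small, at log2 changes of -0.14 and -0.29 with limma adjusted p of 0.801 and 0.533.

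The phosphate carrier Slc25a3 read 4489, 3888 and 4783 in isolated replicates and 4168, 4061 and 4723 in control replicates in its tested probe set, with a log2 change of 0.02 and a 95% interval of -0.24 to 0.28. Neither of the iron carriers, or mitoferrins, was called. Slc25a37 read 296, 284 and 294 in isolated replicates and 218, 236 and 269 in control replicates, with no overlap and a log2 change of 0.28, and Slc25a28 read 160, 118 and 167 in isolated replicates and 112, 110 and 129 in control replicates, which overlapped, with 0.33. The limma adjusted p were 0.603 and 0.591.

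Where a gene had several tested probe sets, most agreed in direction: of 15 such genes, 12 had all of them on 1 side of 0, 7 below and 5 above. An unadjusted limma p under 0.05 was found for 17 of 67 probe sets, or 25.4%, against 11.4% of all tested, and for 13 of 63, or 20.6%, without Slc25a30. Of the 17, 14 were lower, from 9 genes. Among these 14, isolated replicate 3 was the highest isolated array in 10 and isolated replicate 2 the lowest in 11. The arrays as a whole ran the same way, as the median log2 difference from the control mean over all tested probe sets was 0.03, -0.08 and 0.18 in isolated replicates 1, 2 and 3, against 0.007, -0.20 and 0.19 over the Slc25 probe sets. The remaining 50 tested probe sets, from 27 genes, had log2 changes between -0.29 and 0.71. Of the 26 untested probe sets, which reached a signal of at most 32.8 on any array, 6 separated the groups, or 23.1%, against 10.3% of the 22518 probe sets under the filter on the whole array, and 4 of the 6 were higher in isolated livers.

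The summed signal of 6 adipocyte markers was 293, 476 and 562 in isolated replicates 1, 2 and 3, against 210 to 310 in control livers, with 0 of its 3 tested members called. Fabp4, which made up most of that sum, read 203, 300 and 404 in isolated replicates and 117 to 202 in control livers, a log2 change of 0.90 with a limma adjusted p of 0.0578. The other tested members were Cidec, at 19.0 to 20.5 in isolated livers and 19.9 to 32.8 in control livers (log2 change -0.30), and Lipe, at 38.6 to 76.7 in isolated livers and 61.7 to 66.2 in control livers (-0.16). Of the 3 under the filter, Adipoq read 3.78, 59.5 and 54.8 in isolated replicates and 4.38 to 15.6 in control livers, Retn read 2.65 to 42.2 in isolated livers and 2.39 to 3.88 in control livers, and Lep read at most 3.30 on any array. The summed signal of 5 brown adipocyte markers was 376 to 670 in isolated livers and 458 to 691 in control livers, which overlapped. Elovl3, at 339 to 621 in isolated livers and 411 to 653 in control livers, made up most of it. Ucp1, from the same list, read at most 2.73 on any array. The part of fat tissue in the Slc25 results was not tested. Summed signals of 6 lymphocyte markers, 5 of them under the filter, were 160 to 184 in isolated livers and 139 to 154 in control livers. Most of that sum was Ptprc, at 111 to 118 in isolated livers and 87.7 to 116 in control livers, which overlapped. Of those under the filter, Cd3g, Ms4a1 and Cd79b had log2 differences of 1.06, 0.68 and 0.52, and Cd3e and Cd79a had -0.21 and -0.36. The part of lymphocytes in the results was not tested. Sums for macrophage, erythroid, skeletal muscle, endothelial and stellate markers overlapped between the groups.

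The immediate upstream sequences of the 5 called genes are shown because the called probe sets of the family belong to these genes. They are the 250 bases before the RefSeq start site (GRCm38.p6), 5′ to 3′ on the gene's strand, with capitals marking motif matches on either strand. The capitals mark the CCAAT box (CCAAT or ATTGG), the E-box (CACGTG) and the nuclear receptor half-site (AGGTCA or TGACCT). The windows are chr14:75787038-75787287 on the minus strand for Slc25a30, chr4:149774268-149774517 on the minus strand for Slc25a33, chr4:141623835-141624084 on the minus strand for Slc25a34, chr12:108850879-108851128 on the plus strand for Slc25a47 and chr19:5877572-5877821 on the plus strand for Slc25a45.
Slc25a30: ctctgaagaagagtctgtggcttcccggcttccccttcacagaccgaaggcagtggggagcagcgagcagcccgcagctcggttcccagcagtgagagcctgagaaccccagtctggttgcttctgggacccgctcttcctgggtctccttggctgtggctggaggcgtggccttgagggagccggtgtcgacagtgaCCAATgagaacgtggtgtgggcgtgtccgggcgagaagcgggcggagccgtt
Slc25a33: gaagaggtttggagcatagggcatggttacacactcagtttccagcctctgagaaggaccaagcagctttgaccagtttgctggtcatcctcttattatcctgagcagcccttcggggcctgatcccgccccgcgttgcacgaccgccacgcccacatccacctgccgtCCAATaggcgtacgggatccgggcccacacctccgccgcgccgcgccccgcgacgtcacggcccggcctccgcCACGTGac
Slc25a34: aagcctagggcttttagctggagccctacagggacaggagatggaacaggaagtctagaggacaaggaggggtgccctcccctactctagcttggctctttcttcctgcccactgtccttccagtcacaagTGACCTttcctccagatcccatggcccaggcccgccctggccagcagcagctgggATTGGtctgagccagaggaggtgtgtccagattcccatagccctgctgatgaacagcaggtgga
Slc25a47: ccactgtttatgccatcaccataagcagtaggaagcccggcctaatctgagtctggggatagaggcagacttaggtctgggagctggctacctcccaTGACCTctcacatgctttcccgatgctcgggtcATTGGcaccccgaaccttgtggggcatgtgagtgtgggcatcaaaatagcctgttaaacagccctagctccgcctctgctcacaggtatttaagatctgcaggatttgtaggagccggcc
Slc25a45: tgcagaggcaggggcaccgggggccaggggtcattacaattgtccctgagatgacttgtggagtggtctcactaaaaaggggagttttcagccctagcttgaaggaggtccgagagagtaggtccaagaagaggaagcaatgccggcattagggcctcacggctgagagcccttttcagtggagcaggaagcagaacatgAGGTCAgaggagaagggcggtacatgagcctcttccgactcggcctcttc

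The CCAAT box occurred in the windows of Slc25a30, Slc25a33, Slc25a34 and Slc25a47. It was in 33.8% of all 32851 such promoter windows and in 20 of the 43 Slc25 windows, or 46.5%. The AGGTCA half-site occurred in the windows of Slc25a34, Slc25a45 and Slc25a47, in 14.0% of all windows and in 9.30% of the Slc25 windows. The half-site was thus in the window of the gene that rose and of 2 that fell, and the window of Slc25a30, the gene with the largest fall, held, of the motifs searched, a CCAAT box alone. The CACGTG E-box occurred in the window of Slc25a33, in 6.02% of all windows and in 18.6% of the Slc25 windows. The cAMP response element TGACGTCA (1.55% of all windows), a direct repeat of the AGGTCA half-site with 1 base between the copies (0.0335%), the forkhead site GTAAACA (3.17%) and the glucocorticoid receptor palindrome ACANNNTGT (5.84%) matched none of the 5. These are matches of letters in a short window and say nothing of binding. The 43 Slc25 windows covered 34 of the 44 genes.

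Genes that work with the carriers had no called probe set in any of 5 related lists. Over all tested probe sets 0.773% were called higher and 0.857% lower, so no call in lists of this size is near that share. In the tested probe sets of the list of enzymes around the malate-aspartate shuttle, citrate use and the carnitine system, 0 of 33 were called and the median log2 change was 0.10. Acly, which cleaves the citrate that Slc25a1 exports, had the smallest p there, and its probe set 1451666_at read 1302, 1054 and 1188 in isolated replicates and 794, 781 and 920 in control replicates, a log2 change of 0.50 with a limma adjusted p of 0.102. Among genes of mitochondrial calcium uptake and exchange, 0 of 10 were called. Slc8b1, a sodium-calcium exchanger of the inner membrane, came nearest, at 64.4, 44.4 and 94.1 in isolated replicates and 141, 96.5 and 138 in control replicates, a log2 change of -0.91 with an adjusted p of 0.0710.

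The machinery that inserts carriers into the inner membrane had 0 of 30 probe sets called, with a median log2 change of 0.10. Timm9, a chaperone of carrier import, had the smallest p there. Its probe set 1428010_at read 104, 62.9 and 72.7 in isolated replicates and 115, 125 and 124 in control replicates. The log2 change was -0.62 with a limma adjusted p of 0.190. The brighter Timm9 probe set, 1449886_a_at, overlapped, at -0.18 (adjusted p 0.817). Tomm40 and probe set 1426746_at of Timm29 separated the groups in the opposite direction, at 0.49 and 0.47 (adjusted p 0.208 and 0.219). Carrier relatives with other symbols had 0 of 7 called, and the smallest p was that of a dim probe set of Mtch2, 1438842_at, at a log2 change of -0.77 (adjusted p 0.268), while the brightest Mtch2 probe set, 1430474_a_at, had 0.006. Other metabolite gates of mitochondria, among them the pyruvate carrier and the porins, had 0 of 19 called. Sfxn1, a serine carrier, had the smallest p among them, at 947, 692 and 701 in isolated replicates and 511, 557 and 673 in control replicates, a log2 change of 0.42 with an adjusted p of 0.306. An unadjusted limma p under 0.05 was found for 1 of 7 carrier relatives (14.3%), 3 of 30 import probe sets (10%), 1 of 19 other gates (5.26%), 9 of 33 shuttle, citrate and carnitine enzymes (27.3%) and 2 of 10 calcium probe sets (20%), against 11.4% of all tested.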

How the data were processed

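Liver RNA from 6 samples was hybridised to Affymetrix mouse arrays, and the deposited intensity values came from MAS5, per the submitters' processing notes. No MAS5 version, scaling target or detection call was at hand. Of 45101 probe sets, 64 controls were set apart. A pseudocount of 2 was added, log2 taken, and the upper 50% by mean over the 6 arrays, 22519 probe sets above a mean of 4.32, were tested with limma 3.58.1 in R 4.3.3 on 2 groups, with a variance trend on intensity, two-sided, and Benjamini-Hochberg adjustment over all of them. The prior from the trend carried 16.1 degrees of freedom, beside 4 residual ones, and 3 arrays per group bound the precision. The procedure was tested on simulated data. Probe sets were named by the platform annotation, and all 93 matched a RefSeq gene (GRCm38.p6) of the same symbol. One further probe set, with 2 symbols, was not used. Members, lists and tests were chosen with earlier results of these data known. Values are given for called probe sets, those with an unadjusted p under 0.05, and the 2 brightest of each substrate group, and related lists are given by their called member or the one with the smallest p. Slc25a54, with 1 untested probe set, was in no substrate group. Promoter motifs were chosen after the values were seen. Alternatives covered the pseudocount, filter, scaling, variance model, array weights, replicate block, threshold and arrays left out. Figures were drawn with matplotlib 3.10.9.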

Additional observations from a re-analysis of the deposited data

How the results depend on the processing

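All 8 called Slc25 probe sets kept their direction under the 18 alternatives in which they were tested; Slc25a34 was under the upper 25% filter. Of the 8, none passed without the intensity trend, where limma called 0 Slc25 probe sets higher and 0 lower (2 and 12 at an unadjusted p under 0.05), and 3 passed with a robust trend, which left 2 lower. Leaving out 1 array gave 5 to 10 lower and 1 higher in each such fit (1 to 1). Over all tested probe sets, 174 were higher and 193 lower; these were 15 and 16 without the trend, 81 and 101 without a filter, 64 and 98 at an adjusted p under 0.01, and 258 and 183 with median centring. With isolated replicates 2 and 3 left out together, 90 were higher, in a fit that assumes the lone isolated array varies like the controls; the Slc25a30 arrays did not, so its calls there carry no support. With 1 array left out, 97 to 200 were higher and 82 to 246 lower, the fewest without isolated replicate 3 (97 higher) and without control replicate 3 (82 lower). Arrays with the same replicate number had deviations that correlated at 0.008, 0.04 and 0.005. Arrays with different numbers ran from -0.042 to 0.037. These values cannot settle whether the numbers pair the arrays, because a pairing could leave little trace in so few arrays. With the replicate block 265 were higher and 248 lower, and 1 and 8 in Slc25. Uncalled members near 0 changed sign. With 1 array left out, Slc25a1 ran from -0.19 to 0.045, Slc25a39 from -0.036 to 0.12 in 1439410_x_at and from -0.12 to 0.20 in 1456176_x_at, Slc25a3 from -0.044 to 0.11, and Slc25a46 from -0.16 to 0.11, which was also 0.034 with median centring and 0.0073 with array weights. The causes were not tested. Signals under the floor give only approximate folds.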
